A study of Mus musculus with 27 samples.

Results

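Genes of the last steps of red cell formation were followed through all RNA-Seq libraries of MEL cells, a mouse erythroleukaemia line arrested at an immature erythroid stage. They are 9 in number, *Trim58*, *Trim10*, *Fbxo7*, *Ube2h*, *Ube2l6*, *Ube2o*, *Xpo7*, *Riok3* and *Mxi1*. They were chosen by name, for their known parts in ubiquitin conjugation, chromatin condensation and loss of the nucleus, and each was matched to the rows with exactly that symbol. Earlier results of these data were known when they were chosen. Counts of members set beside a background below are therefore descriptions and no test. All 9 were listed in each of the 5 RNA-Seq tables, among 14558 genes that the 5 tables have in common, and all 9 passed the filter on low counts in every comparison.

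At the end of erythropoiesis a red cell precursor stops dividing, condenses its chromatin, expels its nucleus and then clears most of its organelles, ribosomes and unused proteins. Much of that clearance runs through ubiquitin, a small protein that an activating enzyme (E1), a conjugating enzyme (E2) and a ligase (E3) attach in turn to proteins bound for the proteasome. In this stage most genes are silenced, while a small group of conjugating enzymes and ligases is strongly made.

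The study asked what part the corepressor ETO2 (gene *Cbfa2t3*) and its binding partners IRF2BP2, LSD1 (gene *Kdm1a*) and GFI1B have in the control of erythroid genes. Lentiviral shRNAs were used against *Cbfa2t3* (hairpins sh2 and sh3, 2 libraries each, with 2 control libraries), *Irf2bp2* (hairpin sh1, 2 KD and 2 control libraries) and *Kdm1a* (2 KD libraries and 1 control). These shRNA KDs lasted 72 h. Against *Gfi1b*, siRNA was transfected (2 KD and 2 control libraries), for a time that is not given separately. Controls, labelled WT, received a non-targeting shRNA or siRNA. The fifth comparison sets 2 libraries of MEL cells induced to differentiate for 96 h against 2 non-induced libraries; the inducing agent is not given in the sources used here. All libraries come from 1 transformed line that divides in culture. The study's methods describe the replicate libraries as biologically independent, while the labels do not say what was repeated.

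Between 44519414 and 57684583 reads were counted in the shRNA libraries, 9929311 to 18697566 in the *Gfi1b* table and 12187737 to 19623105 in the induction table, so the members are measured more finely in the shRNA tables. In the Irf2bp2 table, WT replicate 2 has 17560 genes above 0 against 15065 to 15234 in the other libraries, and in the *Gfi1b* table the library labelled KD replicate 2 has 15384 against 12735 to 13883. Of 13 erythroid markers 10 or 11 were listed, and their summed level ran from 1209 to 4946 CPM (counts scaled to library size by TMM), whereas 10 myeloid markers, of which 3 to 7 were listed and mostly *Prtn3* was seen, summed to at most 20.1 CPM and 8 lymphoid markers to at most 2.9 CPM. The globins that would mark a mature erythroid cell were near 0, with group means of at most 0.0306 CPM for *Hbb-b1* where it was listed and 1.54 CPM for *Hba-a1*, which was called raised in *Irf2bp2* KD and on induction. A list of 8 megakaryocyte markers, mainly *Pf4* and *Itga2b*, summed to between 182 and 1334 CPM.

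The knocked-down genes were checked first. *Cbfa2t3* stood at 400.3 and 427.2 CPM in the controls, at 202.1 and 243.5 with sh2, and at 123.1 and 145.3 with sh3 (log2 fold change -1.21 ± 0.27 SE, adjusted p = 0.043). *Kdm1a* stood at 151.6 CPM in its 1 control and at a mean of 16.6 in the KD libraries. *Irf2bp2* went from 117.8 to 93.6 CPM, a log2 fold change of -0.33 ± 0.08 (adjusted p = 0.0021) that is smaller than the limit of 0.5 used here for a call. *Gfi1b* goes against its labels: the controls held 122.3 and 145.0 CPM, the library labelled Gfi1b KD replicate 1 held 215.8 and the library labelled Gfi1b KD replicate 2 held 76.5. Values of that table are therefore given per library, and its medians and fitted values average 2 libraries that differ in *Gfi1b*. Here and below, fewer cells of a kind and less RNA per cell cannot be told apart in bulk RNA.

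Control levels of the members spanned a wide range. RPKM values, which are per transcript length and so comparable between genes, put *Ube2l6* first in the controls of the Eto2 table, at 49.6 ± 1.4 (SD, n = 2), above *Trim10* at 23.2 ± 0.1, *Ube2o* at 22.2 ± 1.4, *Riok3* at 20.0 ± 0.7, *Mxi1* at 16.3 ± 0.6 and *Fbxo7* at 16.3 ± 0.1. *Trim58* at 7.32, *Xpo7* at 7.32 and *Ube2h* at 7.13 RPKM came last. Neighbours in this order from *Trim10* to *Ube2o*, from *Mxi1* to *Fbxo7* and among the last 3 differed by no more than their SDs. In non-induced MEL cells, whose table was normalized separately, the order was another: *Mxi1* at 26.8 ± 1.4, *Riok3* at 26.2 ± 2.2 and *Ube2h* at 24.2 ± 0.6 RPKM led, and *Ube2l6* stood seventh at 16.2 ± 2.1. After induction *Ube2l6* at 62.9 ± 12.7 and *Trim10* at 60.1 ± 2.4 RPKM led the 9 genes, and *Trim58* at 6.71 ± 1.86 and *Xpo7* at 5.999 ± 1.103 were the lowest. The control libraries themselves are not alike, since over all 9 of them the highest CPM was 3.91 times the lowest for *Ube2l6* and 3.62 times for *Ube2h*, against 1.37 to 2.45 times for the other members. Fold changes below are therefore taken within a table.

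**Figure D1:**
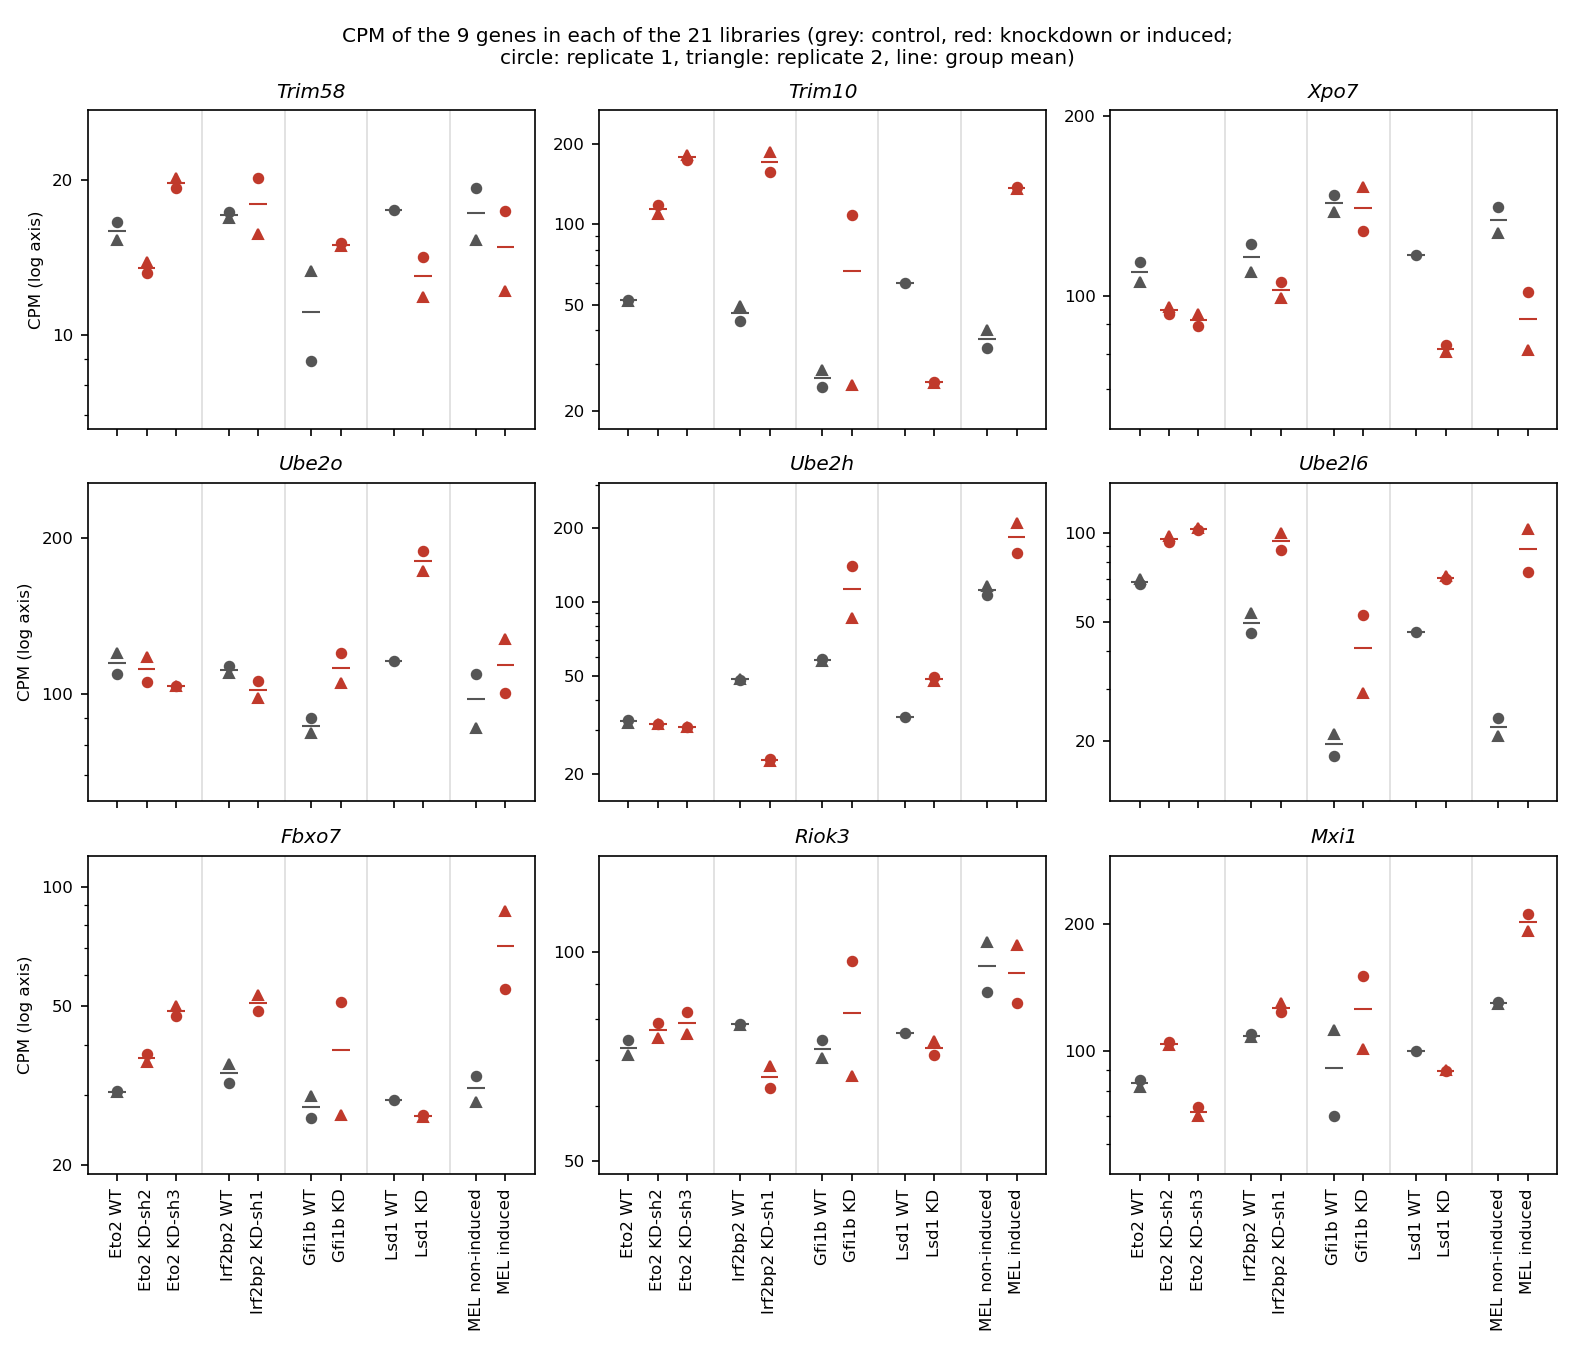
CPM (counts scaled to library size by TMM, log axis) of each of the 9 genes in each of the 21 RNA-Seq libraries, 1 point per library (grey for control, red for KD or induced, line for the group mean), with tables set apart by vertical lines. *Trim10* is higher in all libraries with *Cbfa2t3* or *Irf2bp2* KD and after induction, falls to about 25 CPM in both Lsd1 KD libraries, and separates the libraries labelled Gfi1b KD at 108.1 and 25.0 CPM.

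A gene was called raised or lowered at a Benjamini-Hochberg adjusted p of 0.05 or less in edgeR's quasi-likelihood test, provided that its log2 fold change was at least 0.5 in size. In *Cbfa2t3* KD, 2 of the 9 genes rose, *Trim10* and *Ube2l6*, and none fell (background: 5.65% of 12537 genes called, 2.96% raised and 2.69% lowered). In *Irf2bp2* KD, *Trim10*, *Ube2l6* and *Fbxo7* rose and *Ube2h* fell, 4 of 9 (background: 22.6% of 12329 genes called, 10.1% raised and 12.5% lowered). On induction, 5 of 9 rose, namely *Trim10*, *Ube2l6*, *Fbxo7*, *Ube2h* and *Mxi1* (background: 28.9% of 11713 genes called, 13.4% raised and 15.5% lowered). In the *Gfi1b* table no member was called and no gene at all (0% of 11190 genes by edgeR; 727 genes at an unadjusted p of 0.05, 2 of them members, and 59 genes by DESeq2). In *Kdm1a* KD, with 1 control and described without a test, a gene was counted when each KD library lay at least 0.5 (log2) to the same side of the control; *Ube2o* and *Ube2l6* were higher and *Trim10* and *Xpo7* lower (background: 22.9% of 12628 genes, 13.1% higher and 9.8% lower). An edgeR fit of those 3 libraries, which assumes that the lone control varies like the KD libraries, gave *Ube2h* a log2 of 0.52. The median log2 change of the 9 genes was 0.07 in *Cbfa2t3* KD, 0.07 in *Irf2bp2* KD, 0.47 in the *Gfi1b* table, -0.13 in *Kdm1a* KD and 0.64 on induction, beside medians between -0.02 and 0.02 over all genes tested.

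**Figure D2:**
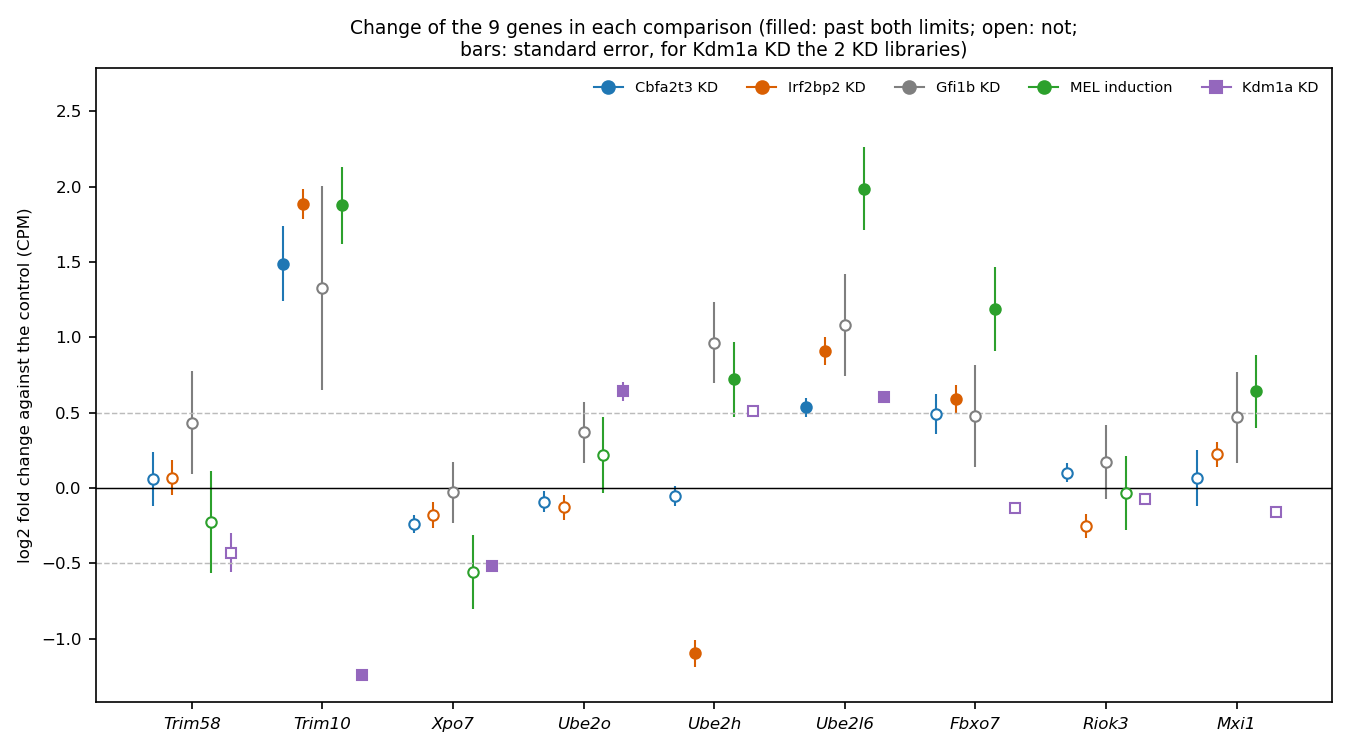
Log2 fold change against the control (y axis) of each of the 9 genes (x axis) in the 5 comparisons, as edgeR estimates with bars of 1 SE, and for *Kdm1a* KD (squares) as the mean with a bar between the 2 KD libraries. Filled points are past the limits for a call and dashed lines mark a log2 of 0.5 either way. *Trim10* lies at 1.49, 1.88 and 1.88 in *Cbfa2t3* KD, *Irf2bp2* KD and induction but at -1.24 in *Kdm1a* KD, and *Ube2h* lies at -1.10 in *Irf2bp2* KD and 0.72 on induction.

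The deposited list of sites bound by ETO2, IRF2BP2 or both, is a readout that the rule for the genes does not use. For IRF2BP2 the samples hold 1 ChIP and 1 IgG library, and the ETO2 ChIP library is not among the samples used here. It has 13229 sites, of which 1760 are ETO2-only, 2730 are shared by both factors and 8739 are IRF2BP2-only, each with a fold enrichment over IgG. Each site was given to the nearest protein-coding transcription start site (TSS) within 1 Mb. The 9 genes received 22 sites, 7 shared and 15 IRF2BP2-only, with 0 that were ETO2-only. A shared site fell to 5 of the 9, *Trim58*, *Trim10*, *Ube2o*, *Ube2h* and *Mxi1*, against 14.1% of 10984 protein-coding genes tested in the *Cbfa2t3* or *Irf2bp2* table, and any site fell to 7 of the 9 against 45.0%. *Fbxo7* and *Riok3* received none. The assignment matters for some members. When a site counted for any TSS within 50 kb, *Ube2o* had 1 ETO2-only, 3 shared and 5 IRF2BP2-only sites, *Mxi1* 1 shared and 3 IRF2BP2-only, *Ube2l6* 2 shared and 3 IRF2BP2-only, *Trim10* 2 shared and 1 IRF2BP2-only and *Riok3* 1 IRF2BP2-only, and 6 of the 9 had a shared site. At sites with at least the median fold enrichment of 7.33, 3 members kept a shared site, *Trim58*, *Trim10* and *Mxi1*. Positions are in mm9, sequences are printed from the plus strand of mm9, and capitals mark a GATA word (GATA with A or T before it and A or G after it, on either strand) or the composite E-box/GATA motif, which contains such a word. Within 300 bases around the centre a GATA word stood in 93.1% of all shared and 52.4% of all IRF2BP2-only sites, and in 4 of 7 shared and 10 of 15 IRF2BP2-only sites of the members. The composite stood in 35.3% and 7.94% of these 2 classes and in 1 of 7 and 2 of 15 sites of the members.

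**Figure D3:**
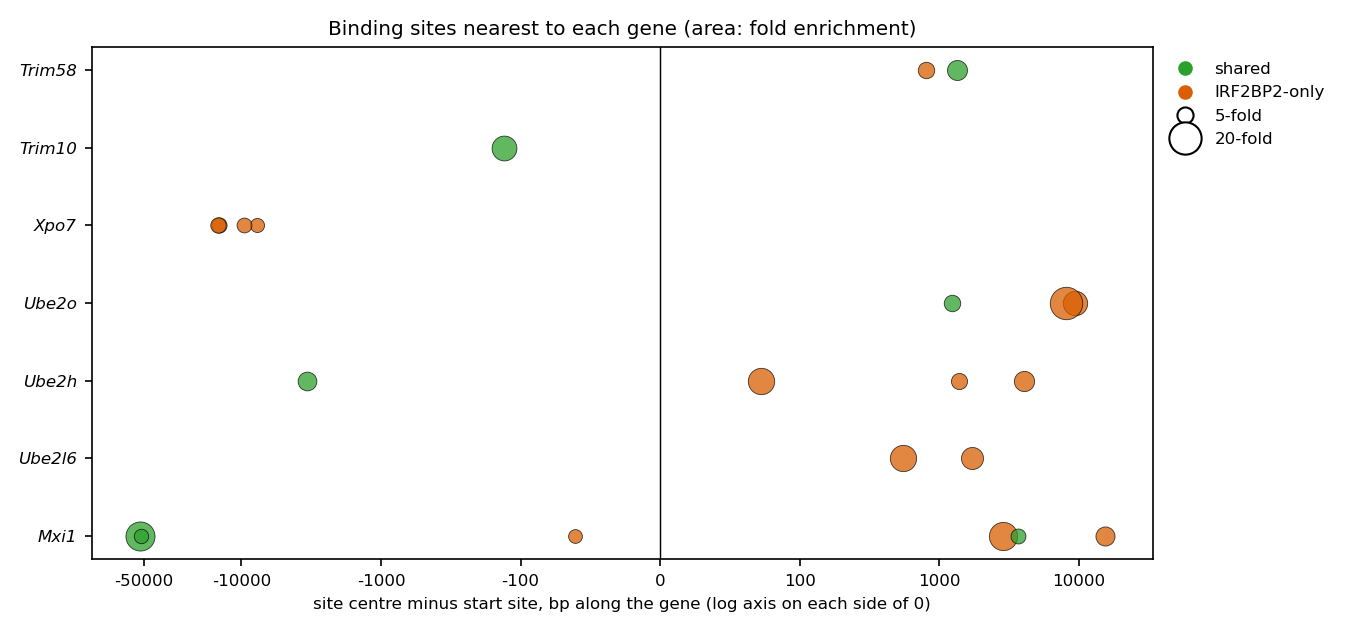
Binding sites around the 7 members that received at least 1, placed by the distance of the site's centre from the TSS (x axis, bp, log axis on each side of 0) and coloured by class, with point area for fold enrichment over IgG. The shared site of *Trim10* lies 131 bp upstream, and the strongest of the 22 sites, at 20.2-fold, lies 8068 bp inside *Ube2o*.

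*Trim10*, also called HERF1, codes for a RING finger protein needed in terminal erythroid differentiation, and it had the largest change of the 9 in *Cbfa2t3*, *Irf2bp2* and *Kdm1a* KD. In the Eto2 table the controls held 52.1 and 51.7 CPM, the sh2 libraries 117.4 and 109.3, and the sh3 libraries 174.4 and 181.1. Every KD library lay above both controls and sh3 lay above sh2. The log2 fold change over both hairpins was 1.49 ± 0.25 (adjusted p = 0.0137), 1.13 with sh2 alone and 1.77 with sh3 alone, and the hairpins differed by 0.65 ± 0.059 (adjusted p = 1.3e-05). The pooled call was lost without either control library (adjusted p = 0.123 and 0.114), which leaves 1 control, and with no filter on low counts (0.0649), while the log2 fold change stayed at 1.48 to 1.49. With each hairpin on its own the call held. In *Irf2bp2* KD, *Trim10* rose from 43.4 and 49.2 to 156.4 and 185.3 CPM (log2 1.88 ± 0.097, adjusted p = 8.83e-12). On induction it rose from 34.3 and 40.03 to 137.3 and 135.2 CPM (1.88 ± 0.25, adjusted p = 9.09e-06). In *Kdm1a* KD the direction was the opposite, with 60.4 CPM in the control and 25.7 and 25.4 in the KD libraries (log2 -1.23 and -1.25, no test). In the *Gfi1b* table the controls held 24.7 and 28.4 CPM, the library labelled KD replicate 1 held 108.1 and replicate 2 held 25.0, so the fitted log2 of 1.33 ± 0.68 (adjusted p = 0.730) averages a high library and one at control level. The erythroid markers moved with *Trim10* library by library in that table, at 3673 summed CPM in the library labelled KD replicate 1 and 1396 in replicate 2 against 1341 and 1459 in the controls. The gene spans chr17:37006519-37014770 on the plus strand, and its shared site, 11.8-fold enriched, lies at chr17:37006177-37006776, with the centre 131 bp upstream of the TSS. Its only GATA word is shown because the site sits in the promoter of the member with the largest rise in both knockdowns.
Trim10, chr17:37006319-37006398: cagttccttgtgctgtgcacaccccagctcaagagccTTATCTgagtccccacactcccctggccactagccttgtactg

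*Trim58*, a ligase of the same family that acts on the dynein motor during enucleation, was called in no comparison against controls. In the Eto2 table it held 16.6 and 15.3 CPM in the controls, 13.2 and 13.8 with sh2 and 19.3 and 20.1 with sh3. The hairpins lay on opposite sides of the controls, at log2 -0.24 and 0.30, and differed by 0.54 ± 0.083 (adjusted p = 0.000783; 3.82% of 12537 genes differed between the hairpins by these limits). Pooled, its log2 fold change of 0.06 lies between those 2. In the other tables it held 17.3 and 16.9 against 20.2 and 15.7 CPM in *Irf2bp2* KD (log2 0.07), 8.9 and 13.3 against 15.1 and 14.9 in the libraries labelled Gfi1b KD (0.43), 17.5 against 14.2 and 11.9 in *Kdm1a* KD, and 19.3 and 15.3 against 17.4 and 12.2 on induction (-0.23, adjusted p = 0.660). Groups overlapped in the *Irf2bp2* and induction tables. *Trim58* has a shared site, 7.67-fold enriched, at chr11:58455014-58455905, 1328 bp downstream of its TSS in an intron, which overlaps an IRF2BP2-only site at chr11:58454300-58455078. The GATA word of the latter is shown because the window of the shared site itself holds none.
Trim58, chr11:58454738-58454817: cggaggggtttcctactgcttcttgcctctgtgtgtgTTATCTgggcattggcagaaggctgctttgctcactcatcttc
Of the other TRIM family genes, 0 rose and 2 fell of 39 tested in *Cbfa2t3* KD, 3 rose and 8 fell of 38 in *Irf2bp2* KD, and 8 rose and 4 fell of 36 on induction. *Trim16* fell in all 3, by -2.47, -2.16 and -2.05, and the largest rises were those of *Trim11* in *Irf2bp2* KD (0.66) and *Trim17* on induction (2.62). In *Kdm1a* KD 11 of 39 were higher and 2 lower, with *Trim16* at 2.21. Of 11 dynein genes, *Dync1li2* and *Dynll2* rose in *Irf2bp2* KD and on induction, none was called in *Cbfa2t3* KD, and in *Kdm1a* KD *Dync1li2* was higher (0.53).

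*Fbxo7* codes for an F-box protein, the part of an SCF ubiquitin ligase that picks the substrate, and is mutated in an inherited form of parkinsonism. The Eto2 controls held 30.6 and 30.4 CPM, the sh2 libraries 38.0 and 36.3 and the sh3 libraries 47.3 and 50.1. All 4 KD libraries lay above the controls, but the log2 fold change of 0.49 ± 0.13 (adjusted p = 0.0453) stayed just under the limit of 0.5, and sh3 alone passed it at 0.67. In *Irf2bp2* KD it rose from 32.1 and 35.8 to 48.6 and 53.5 CPM (0.59 ± 0.093, adjusted p = 2.70e-05). On induction it rose from 33.4 and 28.8 to 55.4 and 86.7 CPM (1.19 ± 0.28, adjusted p = 0.00282), a call that was lost without induced replicate 2 (adjusted p = 0.106). The libraries labelled Gfi1b KD held 51.2 and 26.7 CPM against 26.2 and 29.8 in the controls, and *Kdm1a* KD gave 26.7 and 26.4 against 29.1. *Psmf1*, whose product PI31 binds FBXO7, rose in *Cbfa2t3* KD, *Irf2bp2* KD and on induction, by a log2 of 0.67, 0.86 and 0.96. *Park2*, which codes for the ligase parkin, rose in *Cbfa2t3* KD by 1.00 and stood at -0.29 in *Irf2bp2* KD. *Pink1*, a kinase of mitochondrial quality control, rose on induction by 1.01. In all, of 6 SCF and FBXO7 partner genes 2 rose in *Cbfa2t3* KD, 1 in *Irf2bp2* KD, 2 on induction and 0 in *Kdm1a* KD, with 0 lower in each, and the SCF core genes *Skp1a*, *Cul1* and *Rbx1* were called in none of them. *Fbxo7* received no site of the list. Among the other F-box genes 1 rose and 0 fell of 54 in *Cbfa2t3* KD, 6 rose and 1 fell of 54 in *Irf2bp2* KD, and 6 rose and 0 fell of 52 on induction. *Fbxw4* rose in *Cbfa2t3* KD (0.61), *Fbxl15* rose (1.12) and *Fbxo15* fell (-1.27) in *Irf2bp2* KD, and the largest fitted rise on induction was that of *Fbxo43*, from 0.0841 to 1.16 CPM. In *Kdm1a* KD 5 of 55 were higher and 6 lower.

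*Ube2h* codes for the conjugating enzyme that serves the CTLH ligase complex, and it was the only member whose response differed between knockdowns by the test of that difference. In the Irf2bp2 table the controls held 48.2 and 48.8 CPM and the KD libraries 22.97 and 22.41, a fall of log2 -1.10 ± 0.091 (adjusted p = 5.08e-09). In the Eto2 table it held 33.1 and 32.3 CPM in the controls, 32.0 and 32.0 with sh2, and 30.9 and 31.1 with sh3 (-0.05, adjusted p = 0.660). On induction it rose from 107.1 and 116.7 to 158.1 and 210.7 CPM (0.72 ± 0.25, adjusted p = 0.0316). That rise was no longer called without non-induced replicate 1 (adjusted p = 0.155), non-induced replicate 2 (0.0668) or induced replicate 2 (0.328). The libraries labelled Gfi1b KD held 140.1 and 86.5 CPM against 58.6 and 57.5, both above the controls, with a log2 of 0.96 ± 0.27 (unadjusted p = 0.00806, adjusted p = 0.727). *Kdm1a* KD gave 49.5 and 47.9 CPM against 34.1, log2 0.54 and 0.49, the second just short of the limit. In 1 joint fit of the 3 replicated KD tables the fold change of *Ube2h* was lower in *Irf2bp2* than in *Cbfa2t3* KD by -1.04 ± 0.20 (adjusted p = 0.0162). It was higher in the libraries labelled Gfi1b KD than in *Cbfa2t3* KD by 0.94 ± 0.20 (adjusted p = 0.0221) and than in *Irf2bp2* KD by 1.98 ± 0.21 (adjusted p = 0.000342). No other member passed in any of these 3 differences, in which 3.15, 4.34 and 13.4% of 13164 genes were called. The first of them lost its call without either Eto2 control or any library of the Irf2bp2 table (adjusted p 0.0878 to 0.124), and the second without either Eto2 control or either Gfi1b control (0.0638 to 0.105).

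Around *Ube2h*, at chr6:30161289-30254539 on the minus strand, lie 3 IRF2BP2-only sites and 1 shared site, the latter 6.75-fold enriched at chr6:30257590-30258832, 3363 bp upstream. The strongest, at 13.3-fold, covers the TSS, and another at 7.83-fold lies in an intron, with its centre 4029 bp downstream of the TSS. The shared upstream site and the intronic site are shown because *Ube2h* was the only member to fall in *Irf2bp2* KD, and the second holds the composite motif.
Ube2h upstream, chr6:30257902-30257981: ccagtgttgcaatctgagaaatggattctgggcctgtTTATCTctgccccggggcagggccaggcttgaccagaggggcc
Ube2h intron, chr6:30250593-30250672: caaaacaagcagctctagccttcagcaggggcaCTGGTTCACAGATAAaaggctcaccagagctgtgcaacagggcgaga
Of 11 genes of the CTLH complex and its partners 6 rose and 0 fell on induction, where 13.4% of all genes rose, with a median log2 of 0.75, among them the scaffold *Ranbp10* from 81.5 to 418.7 CPM (2.36), the RING subunit *Rmnd5a* (1.29), *Wdr26* (0.98) and *Gid8* (0.86). The RING subunit *Maea* (-0.17) and *Rmnd5b* (-0.28) were among the 5 not called. In *Irf2bp2* KD, where *Ube2h* fell, 1 of the 11 rose, *Ranbp10* from 66.2 to 152.8 CPM (1.21, adjusted p = 3.00e-10), and 0 fell. In *Cbfa2t3* KD 0 of the 11 were called, and in *Kdm1a* KD 1 was higher and 2 lower.

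*Ube2l6* codes for the conjugating enzyme of ISG15, a ubiquitin-like protein, and is known as a gene induced by interferon. It held 67.1 and 69.7 CPM in the Eto2 controls, 93.2 and 97.6 with sh2 and 102.3 and 103.5 with sh3 (log2 0.54 ± 0.066, adjusted p = 0.000974; sh2 alone 0.48, short of the limit). It rose from 46.1 and 53.9 to 87.8 and 99.9 CPM in *Irf2bp2* KD (0.91 ± 0.094, adjusted p = 1.74e-07). The largest rise came on induction, from 23.8 and 20.8 to 74.1 and 102.8 CPM (1.99 ± 0.28, adjusted p = 1.2e-05). In *Kdm1a* KD both libraries, at 69.8 and 71.4 CPM, lay above the control at 46.5. The libraries labelled Gfi1b KD held 53.1 and 29.1 CPM against 17.8 and 21.2, both above the controls (1.08 ± 0.34, unadjusted p = 0.0142, adjusted p = 0.727). *Ube2l6* was thus higher than all controls of its table in every treated library of the 5 tables.

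Other genes of the interferon and ISG15 list were set beside *Ube2l6*. Of 19 tested, 1 rose and 4 fell in *Cbfa2t3* KD (median log2 -0.25; 2.96 and 2.69% of all genes) and 1 rose and 8 fell in *Irf2bp2* KD (median -0.59; 10.1 and 12.5%), among the latter *Irf7* by -2.30 and *Oas2* by -2.08. On induction 4 rose and 2 fell (median 0.24). In *Kdm1a* KD 12 of 20 were higher in both libraries and 0 lower (median 0.88), with *Isg15* itself going from 1.3 to 10.8 CPM and *Ifit1*, with the largest difference, from 0.0409 to 1.52 CPM. The 1 gene of the list that rose in both *Cbfa2t3* and *Irf2bp2* KD was *Uba7*, which codes for the activating enzyme of ISG15, by 0.53 and 0.86, and it rose from 60.4 to 227.9 CPM on induction (1.91). In *Kdm1a* KD *Uba7* was at -0.27. *Isg15*, the protein these enzymes attach, stood between 0.3 and 11.2 CPM over all libraries. *Ube2l6*, at chr2:84638985-84650492 on the plus strand, holds 2 IRF2BP2-only sites in its introns, 13.2-fold enriched at chr2:84639233-84640364 and 9.33-fold at chr2:84640364-84641136. A shared site of 24.3-fold lies 13217 bp downstream of the TSS, nearest to *Smtnl1*. The first intronic site is shown for its composite motif, 553 bp from the TSS at its centre; its 300-base window also holds 2 matches of the interferon response word (GAAA, any 2 bases and GAAA again, on either strand), which stands in 4.51% of IRF2BP2-only sites.
Ube2l6, chr2:84639496-84639575: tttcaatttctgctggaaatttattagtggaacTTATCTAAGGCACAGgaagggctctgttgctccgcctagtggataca

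**Figure D4:**
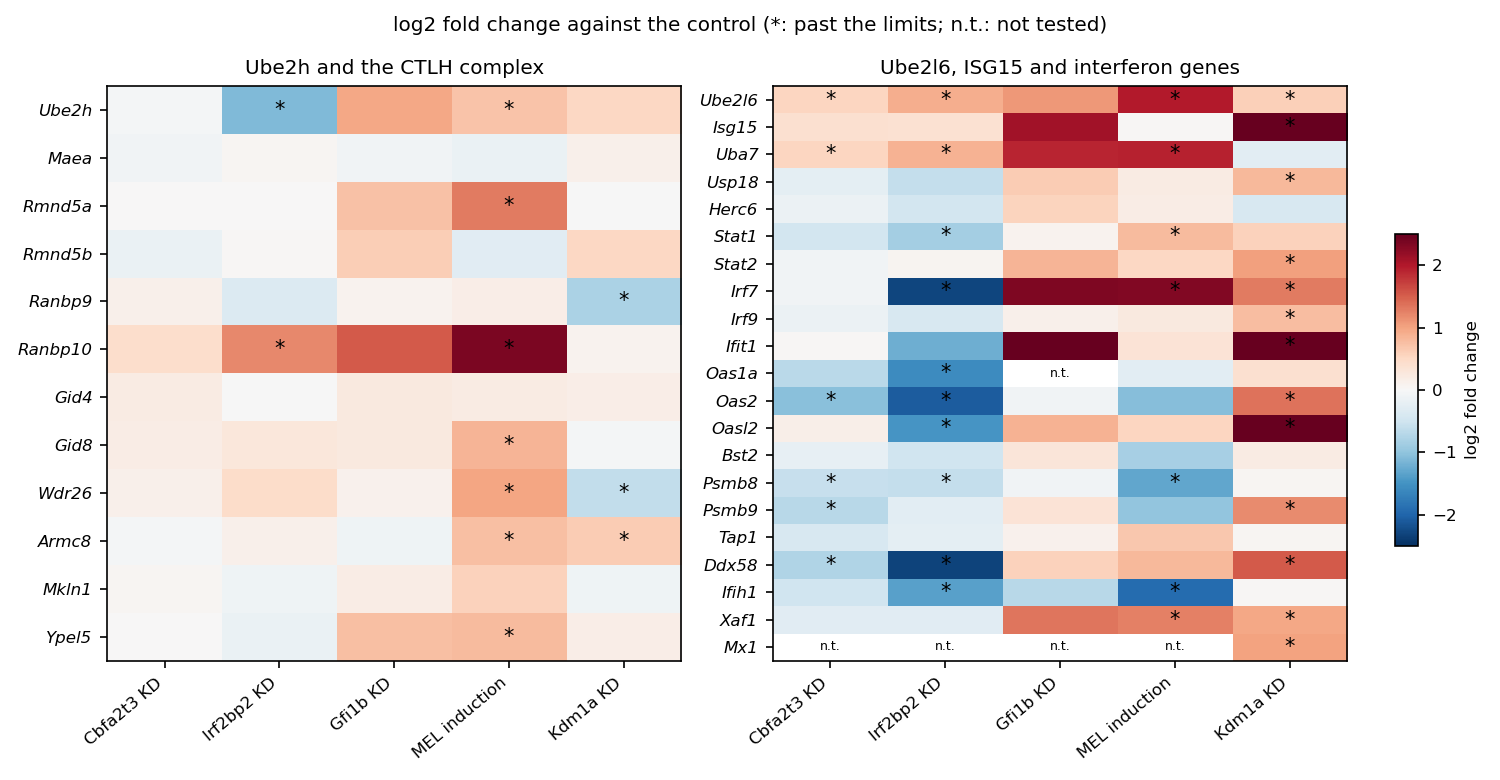
Log2 fold change (colour) of *Ube2h* beside 11 genes of the CTLH complex and its partners (left) and of *Ube2l6* beside 20 interferon genes (right), 1 row per gene and 1 column per comparison, with a star for genes past the limits. *Uba7* follows *Ube2l6* upwards in *Cbfa2t3* KD, *Irf2bp2* KD and induction, and *Ranbp10* rises in *Irf2bp2* KD while *Ube2h* falls.

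*Ube2o*, a large enzyme that acts as both conjugating enzyme and ligase and clears ribosomes and unassembled proteins from reticulocytes, was called in none of the replicated comparisons. It held 109.6 and 119.9 CPM in the Eto2 controls and 103.8 to 117.8 in the 4 KD libraries, 113.1 and 110.0 against 105.9 and 98.4 in *Irf2bp2* KD, and 109.5 and 86.1 against 100.5 and 127.6 on induction, with no call. The libraries labelled Gfi1b KD held 119.8 and 105.2 CPM against 89.9 and 84.3 (log2 0.37, not called). Only in *Kdm1a* KD did both libraries pass the limit, at 188.2 and 172.9 CPM against 115.7 (0.70 and 0.58, no test). Its strongest site is IRF2BP2-only, 20.2-fold, at chr11:116434017-116435019 in an intron, and a shared site of 5.25-fold lies at chr11:116441019-116441981, 1234 bp inside the gene. The GATA word of the strongest site is shown because it is the most enriched of the 22 sites given by nearest TSS.
Ube2o, chr11:116434670-116434749: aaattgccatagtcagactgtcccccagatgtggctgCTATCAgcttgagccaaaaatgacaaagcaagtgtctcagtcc
A pseudogene, *Gm11742*, overlaps *Ube2o*, and it is not stated that the counting used strand. Of 29 other conjugating enzymes, 0 were called in *Cbfa2t3* KD and 0 on induction, where *Ube2h* and *Ube2l6* rose, and 6 rose and 1 fell in *Irf2bp2* KD, with *Ube2v1* and *Cdc34* at 0.88 each and *Ube2d1* at -0.66. In *Kdm1a* KD, where *Ube2o* was higher, 3 of the 29 were higher, with the largest difference in *Ube2b* (0.78), and 6 were lower, among them *Ube2s* by -0.92 and *Birc6*, another large enzyme that is both conjugating enzyme and ligase, by -0.74.

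*Xpo7*, an exportin that carries histones and other proteins out of the nucleus as chromatin condenses, was below all controls in the KD tables of ETO2, IRF2BP2 and LSD1 and on induction. It was past the limits only in the table of LSD1. The Eto2 controls held 114.2 and 105.7 CPM, sh2 93.4 and 96.1, and sh3 89.3 and 93.4. All 4 KD libraries lay below both controls, and the log2 fold change of -0.24 (adjusted p = 0.0314) was under the limit for a call. In *Irf2bp2* KD it held 122.5 and 109.8 against 105.7 and 99.5 CPM (-0.18, adjusted p = 0.0905). On induction it went from 140.9 and 127.8 to 101.5 and 81.4 CPM, with no overlap of the groups. Its mean went from 134.3 ± 9.3 to 91.5 ± 14.2 CPM (SD, n = 2), log2 -0.55 ± 0.25, with an adjusted p of 0.092 that became 0.0495 with the replicate number as a block. In *Kdm1a* KD both libraries, at 82.7 and 80.6 CPM against 117.2, were past the limit (-0.50 and -0.54), the first at the limit itself. In the *Gfi1b* table groups overlapped, at 147.7 and 138.4 against 128.4 and 152.5 CPM. Of 17 other exportins and importins 0 rose and 6 fell on induction (median log2 -0.50), among them *Xpo5* by -1.15, *Ipo5* by -1.14 and *Xpo1*, the main export carrier, by -0.69. In *Irf2bp2* KD 1 of them rose, *Ipo13* by 0.78, and 3 fell, among them *Xpo1* by -0.55 and *Kpnb1*, the import carrier, by -0.61. In *Kdm1a* KD 0 were higher and 4 lower, with the largest difference in *Cse1l* (-1.30). *Xpo7* received 4 IRF2BP2-only sites, all upstream by 7674 to 14691 bp and 3.82 to 4.57-fold enriched, with no shared site. The gene overlaps *Dok2* on the other strand, so reads of the 2 genes could not be separated without strand.

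*Riok3*, an atypical kinase needed for condensation and enucleation in red cell precursors, was the member whose largest change over the 5 comparisons was smallest, with log2 values between -0.25 and 0.17. It held 74.6 and 71.0 CPM in the Eto2 controls against 75.3 to 82.1 in the KD libraries, 87.6 and 103.5 against 84.4 and 102.5 on induction, and 76.4 against 71.1 and 74.4 in *Kdm1a* KD. In *Irf2bp2* KD it was lower, from 78.9 and 78.5 to 63.8 and 68.4 CPM, past the p limit (adjusted p = 0.0165) but with a log2 of -0.25. The libraries labelled Gfi1b KD held 97.0 and 66.3 CPM around controls at 74.8 and 70.3. Of the 2 other RIO kinases, *Riok2*, of ribosome assembly, fell on induction by -1.01. *Riok3* received no site.

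*Mxi1* codes for a repressor that binds MAX in place of MYC, a transcription factor of growth. On induction *Mxi1* rose from 130.4 and 129.0 to 212.4 and 192.9 CPM (0.64 ± 0.24, adjusted p = 0.0471), with no overlap of the groups but without a call once any 1 of the 4 libraries was left out (adjusted p 0.119 to 0.180) or with no filter on low counts (0.0563). *Myc* fell in the same libraries from 336 to 111 CPM (-1.60), and the related MAX partners *Mxd4* (1.44) and *Mxd3* (1.23) rose, so that of 9 other MAX network genes 2 rose and 1 fell. In *Irf2bp2* KD *Mxi1* held 109.4 and 107.5 against 123.3 and 129.9 CPM (0.22, adjusted p = 0.0289, under the fold limit), and of the 9 *Mxd3* alone was called, with a rise of 0.82. In *Cbfa2t3* KD 0 of the 9 were called, and in *Kdm1a* KD *Mxd1* (1.22) and *Mxd4* (0.58) were higher and 0 lower. In the Eto2 table the hairpins went apart, from controls at 85.3 and 81.9 CPM to 104.7 and 102.9 with sh2 and 73.2 and 69.8 with sh3, a difference of -0.54 ± 0.060 (adjusted p = 6.0e-05). The pooled value of 0.07 lies between the 0.31 of sh2 and the -0.23 of sh3. The libraries labelled Gfi1b KD held 150.4 and 100.8 CPM against 69.9 and 111.9, and *Kdm1a* KD 89.3 and 89.8 against 100.0. By the nearest TSS *Mxi1* received the most sites, 3 shared and 3 IRF2BP2-only. The strongest shared one, 16.2-fold at chr19:53331311-53332052, lies 53317 bp upstream, and an IRF2BP2-only site of 15.3-fold lies 2860 bp inside the gene. The distal one is shown as the only shared site of a member with the composite motif within 300 bases around the centre. *Gm10197* overlaps *Mxi1* on the other strand.
Mxi1, chr19:53331637-53331716: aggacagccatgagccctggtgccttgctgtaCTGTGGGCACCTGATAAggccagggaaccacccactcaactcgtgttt

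Of 14 other genes with a known part in enucleation, 3 were called in *Cbfa2t3* KD, 3 in *Irf2bp2* KD and 4 on induction, beside 5.65, 22.6 and 28.9% of all genes. The transcription factor *Foxo3* rose by 0.54 and the adhesion molecule *Icam4* by 0.54 in *Cbfa2t3* KD, where the GTPase *Rac1* fell by -0.84. In *Irf2bp2* KD the cell cycle factor *E2f2* rose by 1.41, *Icam4* by 0.77 and the citron kinase gene *Cit* by 0.61. On induction *Foxo3* and the cell cycle inhibitor *Rb1* rose by 1.09 each, while the myosin gene *Myh10* fell by -0.97 and the acetyltransferase gene *Kat2a* by -0.75. In *Kdm1a* KD, without a test, the histone deacetylase gene *Hdac5* (1.07) and the lysosomal DNase gene *Dnase2a* (0.91) were higher, and *Hdac2* (-1.35) and *Icam4* (-0.71) were lower, beside 22.9% of all genes. All of these lists were at 0 genes called in the *Gfi1b* table.

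The summed level of erythroid markers differed between groups too. Summed over the list, they ran at 1602 to 1611 CPM in the Eto2 controls, 2242 to 2247 with sh2 and 2597 to 2674 with sh3. In the Irf2bp2 table they went from 1310 to 1389 up to 3617 to 3901 CPM, on induction from 1950 to 2048 up to 4375 to 4946, and in *Kdm1a* KD from 1671 down to 1209 to 1217. Of those tested, 6 of 10 rose in *Cbfa2t3* KD, 10 of 10 in *Irf2bp2* KD and 8 of 10 on induction, and 0 fell. In *Kdm1a* KD 3 of 9 were lower and 0 higher. Some went against the sum: *Tfrc* on induction (1011 to 682 CPM), and *Nfe2* (88.5 to 107.4) and *Alas2* (66.2 to 69.6) in *Kdm1a* KD. Megakaryocyte markers (7 or 8 of 8 listed, *Gp6* at or near 0 where listed) ran at 410 to 423 CPM in the Eto2 controls, 575 to 603 with sh2 and 492 to 500 with sh3. They went from 375 to 431 up to 817 to 858 in *Irf2bp2* KD and from 398 to 535 up to 1201 to 1334 on induction. In *Kdm1a* KD they stood at 289 and 352 against 345, and in the *Gfi1b* table the library labelled KD replicate 1 held 915 and replicate 2 held 182 against 229 and 295 in the controls. The part of either in the members' changes was not tested.

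Across all 21 libraries, centred on the control mean of each table, log2 CPM was compared with that of 11041 other genes. These are descriptions, since libraries of a table share controls and depth. The 3 genes most like *Trim10* were *Ptdss2* (r = 0.980), *Slc4a1*, the band 3 anion exchanger of the red cell membrane (0.970), and *Pigq* (0.969). Those most like *Ube2l6* were *Fam134a* (0.974), *Bcl2l11* (0.969) and *Eif2ak1*, the haem-regulated kinase of translation (0.967). *Fbxo7* ran most closely with *Tmem14c*, a mitochondrial carrier of haem synthesis (0.965), *Tmem131* (0.958) and *Rnf167* (0.957), and *Ube2h* with *Gltscr1l* (0.967), *Cdk19* (0.962) and *Usp11* (0.944). *Ube2o* was most like *Flcn* (0.935), *Cpt1a* (0.934) and *Ubap1* (0.929), *Xpo7* like *Stt3b* (0.944), *Slc39a10* (0.905) and *Sec61a1* (0.901), and *Mxi1* like *Dguok* (0.903), *Tctn1* (0.900) and *Fcho1* (0.894). *Riok3* and *Trim58*, which were called in no comparison against controls, had their closest genes at 0.894 (*Ccdc18*) and 0.805 (*Napepld*). Between members r was 0.872 for *Trim10* with *Fbxo7*, 0.872 for *Ube2l6* with *Fbxo7* and -0.735 for *Ube2l6* with *Xpo7*.

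Promoters, 250 bases before to 50 after a start in RefSeq (GRCm38.p6), were at hand for 6 of the 9 genes, all but *Xpo7*, *Ube2o* and *Riok3*. At least 1 promoter of a gene held a GATA word in 3 of the 6, against 29.8% of 32851 promoters, and CCNCNCCC on either strand in 3 (49.5%). The composite E-box/GATA motif stood in 1, *Ube2h* (2.84%), and CACGTG in 1, *Fbxo7* (7.15%). The interferon response word stood in 1, also *Fbxo7* (3.44%), and the promoter of *Ube2l6* held none. Some members have more than 1 promoter in the table, which raises their count over that of a single promoter.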

How the data were processed

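RNA-Seq of 21 MEL libraries in 5 tables and 1 list of ChIP-Seq sites were used. The authors mapped reads with Tophat2 to mm9 and deposited raw read counts and RPKM per RefSeq gene (rpkmforgenes; use of strand is not stated). The authors' deposited log2 fold changes, p-values and adjusted p-values from DESeq2 are in the same tables and were not used. The deposited site list gives the fold (the ratio of ChIP to IgG) and an adjusted p-value per site, and 4 columns of read numbers were not used. Per the labels, Bowtie, TopHat2 and DESeq2 were used.

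Counts were fitted per table in R 4.3.3 with edgeR 4.0.16 (TMM, filterByExpr, robust quasi-likelihood fit, Benjamini-Hochberg over all genes tested). Calls needed an adjusted p of 0.05 and an absolute log2 fold change of 0.5. CPM are TMM scaled, and *Kdm1a* KD values use a prior count of 2. Differences between KDs came from 1 joint fit of the 3 replicated KD tables. Likeness used log2(CPM + 0.5) for genes with a mean CPM of at least 1. Sites and sequences were read with pysam 0.24.0 from mm9, and tables with pandas 2.3.3. The test was checked on simulated counts.

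The members and gene lists were chosen with earlier results of these data known. Named genes are all 9 members, the knocked-down genes, for each list up to 4 genes (the largest rise and fall per comparison and, in 5 of the lists, genes called in 2 or more comparisons, so not every such gene is named; all called genes of the enucleation list are named, chosen after their values were seen), and the 3 genes most like each member. Alternatives were DESeq2 1.42.0 and its size factors, other count filters, the replicate number as a block, no adjustment, no fold limit, each hairpin alone, and each library left out.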

Additional observations from a re-analysis of the deposited data

Results flagged for a closer look

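*Ube2h* was picked out 3 times because its fold change differed between knockdowns in the joint fit, by -1.04 between *Irf2bp2* and *Cbfa2t3* KD, by 0.94 between the libraries labelled Gfi1b KD and *Cbfa2t3* KD, and by 1.98 between those libraries and *Irf2bp2* KD. Since the library labelled Gfi1b KD replicate 1 holds more *Gfi1b* than its controls, the last pair of values rests on labels that the data do not bear out for 1 library.

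Hairpins sh3 and sh2 against *Cbfa2t3* gave different levels of *Trim58* (0.54 higher on the log2 scale with sh3), *Trim10* (0.65 higher) and *Mxi1* (-0.54). For *Trim58* and *Mxi1* the 2 hairpins lay on opposite sides of the controls. *Cbfa2t3* itself was lower with sh3, at 123.1 and 145.3 CPM, than with sh2, at 202.1 and 243.5 CPM.

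*Ube2o* had 1 library apart from the other 3 of the 4 *Cbfa2t3* KD libraries, at 117.8 CPM against 103.8 to 105.8. The gap was 0.857 of the range, over Dixon's critical value for 4 samples at the 95% level, which chance passes in about 1 of 20 groups. All 9 members were looked at in this way, so the chance that any of them passes is higher. The 4 libraries also mix hairpins sh2 and sh3, whereas Dixon's value assumes samples of the same kind.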

How the results depend on the processing

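Of the member values under other settings, 487 kept direction and side of the limits, 24 lost a call, 21 gained one and 15 changed direction. Those that changed direction were uncalled. In *Cbfa2t3* KD *Trim58* was at -0.24 with sh2 alone and *Mxi1* at -0.23 with sh3 alone. On leaving out each library in turn, log2 fold changes ran from -0.051 to 0.15 (*Trim58*) and -0.029 to 0.16 (*Mxi1*) there, from -0.11 to 0.24 for *Trim58* in *Irf2bp2* KD, from -0.51 to 0.021 (*Trim58*) and -0.17 to 0.092 (*Riok3*) on induction, and in the *Gfi1b* table from -0.088 to 2.01 (*Trim10*), -0.18 to 0.090 (*Xpo7*), -0.070 to 0.85 (*Fbxo7*) and -0.13 to 0.40 (*Riok3*). In *Cbfa2t3* KD 1454 genes and 4 members passed with no fold limit, 1157 genes with sh3 alone, 1 member with sh2 alone and 1, *Ube2l6*, with no count filter. Leaving out a library gave 275 to 787 genes and 1 to 3 members there, 1772 to 3404 genes and 2 to 4 members on induction, and 0 to 3107 genes and 0 to 4 members in the *Gfi1b* table. In *Irf2bp2* KD 5866 genes passed with no fold limit. The *Gfi1b* table gave 59 genes with DESeq2, 252 genes and 2 members with no count filter, 727 genes and 2 members at unadjusted p, and 3 genes with the replicate block. Without the library labelled Gfi1b KD replicate 2, the log2 fold change was 2.01 for *Trim10*, 1.43 for *Ube2l6*, 1.25 for *Ube2h* and 0.85 for *Fbxo7*. Without replicate 1 that of *Ube2h* was 0.57. Each of these fits has 1 KD library, assumed to vary like the 2 controls, and the one kept in the first has more *Gfi1b* than both controls. Members that differed between KDs on leaving out a library numbered 0 to 1 for *Irf2bp2* against *Cbfa2t3*, 0 to 2 for *Gfi1b* against *Cbfa2t3*, 1 to 3 for *Gfi1b* against *Irf2bp2* and 3 to 3 for the hairpins. At sites of at least the median fold 3 members had a shared site. The cause was not tested. Same-numbered replicates deviated together with r of 0.118 to 0.252 in the Eto2 table, 0.03 in the Irf2bp2, 0.00 in the *Gfi1b* and 0.20 in the induction table, and the labels do not say that numbers pair libraries. The replicate block changed 1 member's call, that of *Xpo7* on induction. The *Gfi1b* and induction tables are shallower, and the part of depth in their counts of calls was not tested.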
